A study of Homo sapiens with 18 samples.

Results

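The genes described here are the ATF4 and unfolded protein response genes, a list of 37 chosen by symbol from the 58870 genes of the count table, and all 37 were found. The list was split by known function into an ATF4 arm of 20 genes, made up of the transcription factor ATF4 and genes of the amino acid stress response, and an endoplasmic reticulum (ER) arm of 17 genes, made up of the ER stress sensors, ER chaperones and genes of ER-associated degradation (ERAD). The rule uses gene symbols and no measured value, but the list was drawn up with earlier results of these libraries known.

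Proteins that fail to fold in the ER are sensed by 3 membrane proteins, which are PERK (encoded by EIF2AK3), IRE1 (ERN1) and ATF6. IRE1 splices the mRNA of XBP1, and the proteins XBP1 and ATF6 then switch on chaperones and ERAD genes, while PERK phosphorylates the translation factor eIF2, which lowers protein synthesis but raises translation of ATF4. Other kinases that sense lack of amino acids, lack of heme or viral RNA converge on the same step, so ATF4 also drives genes of amino acid synthesis and import, and melanoma cells are known to use this response when nutrients are short.

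RNA sequencing was performed on 3 human melanoma cell lines, WM164, SKMEL28 and A375, each transduced with a lentivirus that expressed either MAFG or, as the control, GFP. MAFG is a small MAF transcription factor that binds DNA as a dimer, and the overexpressed form carried a Myc-DDK tag. According to the study's methods the vectors used the EF1α promoter and blasticidin selection, which the GFP cells shared, and all cells were grown in RPMI medium with serum. Every one of the 6 groups (WM164 with GFP, WM164 with MAFG, SKMEL28 with GFP, SKMEL28 with MAFG, A375 with GFP and A375 with MAFG) had 3 libraries, 18 in all. Each line is 1 established line of 1 tumour, and nothing states that the 3 libraries of a group came from separate cultures, so a p-value measures the spread between these libraries, which may be technical.

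The sum of counts per library ranged from 20122172 to 39025042, with a median of 31061375. As a check of the labels, MAFG mRNA rose from 24.4 ± 2.71 to 50.1 ± 4.43 CPM (counts scaled by edgeR to a common library size, mean ± SD, n = 3 libraries) in WM164 cells, with an adjusted p of 6.37e-08 by edgeR. It rose from 23 ± 3.23 to 35.7 ± 1.52 CPM in SKMEL28 cells (adjusted p = 0.000128 by edgeR), and was at 30.0 ± 5.63 CPM with GFP and 52.3 ± 8.86 CPM with MAFG in A375 cells, where it did not pass (adjusted p = 0.0655 by edgeR). The summed level of 7 melanocytic markers in TPM, the deposited length-corrected unit, was 1440.3 to 1825 in WM164 and 2539 to 2622 in SKMEL28 cells with GFP, but 12.4 to 13.2 in A375 cells, where MLANA and TYR were listed at 0. With MAFG the same sum was 1615 to 1682, 1964 to 2162 and 39.5 to 50 TPM in the same order. The WM164 sum hides opposite changes of single markers, since MLANA (log2 fold change -2.41, SE 0.06), TYR (-1.55, SE 0.09), PMEL (-1.46, SE 0.07) and MITF (-0.65, SE 0.05) fell with MAFG and S100A1 rose (0.40, SE 0.06), while SOX10 (-0.04) and S100B (0.02) did not pass. In SKMEL28 cells PMEL (-0.66, SE 0.07), TYR (-0.23, SE 0.05) and MITF (-0.20, SE 0.05) fell and S100B rose (0.58, SE 0.06), and in A375 cells SOX10 rose (3.68, SE 0.21). These markers moved in the same libraries as the members below, and their part in those results was not tested. Over all genes, 2580 were higher and 2485 lower with MAFG in WM164 cells by edgeR, and 1558 higher and 360 lower by limma on the log2(TPM + 1) scale. In SKMEL28 cells the counts were 2265 and 2375 by edgeR but 470 and 2105 on the log2(TPM + 1) scale, and in A375 cells 123 and 10 against 18 and 1. The A375 counts rest on single libraries, being 307 higher and 86 lower without the MAFG library 1, and 57 to 80 higher and 1 to 3 lower without any other library. Of the markers of keratinocytes, immune cells and endothelium, PTPRC and CD3E were listed at 0 in every library, and KRT10 made up nearly all of the sum of 6.13 to 65.9 TPM. In bulk RNA, fewer cells of a type and less RNA per cell cannot be told apart.

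The promoters of the members were read first, because ATF6, XBP1 and ATF4 act through short DNA elements. For 33 of the 37 members RefSeq (GRCh38.p14) gave a window from 250 bases upstream to 50 bases downstream of a start site, and PSPH, SHMT2, ALDH1L2 and NUPR1 had no entry in the table used. The ER stress element (ERSE), searched as CCAAT and CCACG with 9 bases between them on both strands, is the element to which ATF6 and XBP1 bind next to the CCAAT-binding factor NF-Y. It was found in 6 of 17 genes of the ER arm (35.3%) and in 0 of 16 of the ATF4 arm, against 25 of 27305 genes with a window (0.0916%). The ER arm was chosen by known function and holds genes that ATF6 and XBP1 switch on. This share therefore follows in part from the choice of genes and is not an independent result. The windows of those 6 genes are shown around the element, which is in capitals with 20 bases on each side, on the strand of the gene, so that CCACG appears as CGTGG where the element lies on the opposite strand.
HSPA5: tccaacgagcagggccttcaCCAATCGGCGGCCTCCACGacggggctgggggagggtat
XBP1: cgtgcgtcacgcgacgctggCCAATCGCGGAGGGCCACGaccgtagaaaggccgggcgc
PDIA6: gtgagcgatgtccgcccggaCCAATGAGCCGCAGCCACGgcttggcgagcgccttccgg
CRELD2: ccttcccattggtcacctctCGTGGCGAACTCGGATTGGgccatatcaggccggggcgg
CALR: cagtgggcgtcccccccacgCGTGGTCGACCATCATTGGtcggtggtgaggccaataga
HSP90B1: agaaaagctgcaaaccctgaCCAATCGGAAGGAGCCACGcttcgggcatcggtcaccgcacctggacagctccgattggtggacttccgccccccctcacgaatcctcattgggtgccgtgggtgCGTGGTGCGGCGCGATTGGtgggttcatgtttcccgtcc

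The stretches lie at chr9:125241371-125241429 on the minus strand for HSPA5, chr22:28800583-28800641 on the minus strand for XBP1 and chr2:10812833-10812891 on the minus strand for PDIA6. On the plus strand they lie at chr22:49918534-49918592 for CRELD2, chr19:12938364-12938422 for CALR and chr12:103930196-103930359 for HSP90B1, whose window held 2 matches. In HSPA5 the element spanned bases -66 to -48 from the start site, and in XBP1 bases -52 to -34.

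The element to which ATF4 binds as a dimer with a C/EBP protein (CARE), searched as TGATGNAA on both strands, was found in ASNS and CHAC1 of the ATF4 arm (2 of 16 genes, 12.5%) and in HERPUD1 of the ER arm (1 of 17, 5.88%), against 4.46% of all genes. These 3 windows are shown in the same way.
ASNS: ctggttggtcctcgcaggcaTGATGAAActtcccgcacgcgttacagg
CHAC1: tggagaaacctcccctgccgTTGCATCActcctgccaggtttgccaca
HERPUD1: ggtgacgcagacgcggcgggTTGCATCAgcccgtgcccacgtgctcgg

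The stretch of ASNS lies at chr7:97872449-97872496 on the minus strand, that of CHAC1 at chr15:40953242-40953289 and that of HERPUD1 at chr16:56931946-56931993, both on the plus strand. The letters TGACNNNGC, a core of the antioxidant response element to which small MAF dimers bind, were found in 6 of 16 genes of the ATF4 arm (CEBPB, MTHFD2, PPP1R15A, STC2, TRIB3 and VLDLR) and in 5 of 17 of the ER arm (CALR, CRELD2, ERN1, SDF2L1 and SEL1L), against 16.1% of all genes. The E-box CACGTG, to which MITF binds, was found in ATF4, DNAJB9, HERPUD1 and HSP90B1, against 8.77% of all genes, and the unfolded protein response element TGACGTGG was found in 0 members, against 0.927% of all genes. No ERSE or CARE match overlapped a match of another of these motifs. A match is a run of letters in this window, and binding was not measured at any of them.

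MAFG was compared with GFP in each line to ask how these genes responded to MAFG. In WM164 cells the ER arm was higher with MAFG, with HSPA5 and the ERAD gene SEL1L at the top, while 7 genes, the sensors ATF6, EIF2AK3 and ERN1 among them, did not pass the test. Of its 17 genes, 10 were higher at an adjusted p of 0.05 or less by edgeR and 0 were lower, against 16.2% of all 15919 genes tested higher and 15.6% lower. No gene of the arm was lower at an unadjusted p under 0.05 either, and DESeq2 gave 10 higher and 0 lower. The median log2 fold change (MAFG against GFP) over the 17 genes was 0.30, and 0.00 over all genes tested. In 11 of the 17 genes every MAFG library was above every GFP library, which held for 22.5% of all genes.

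HSPA5 (ENSG00000044574.8, chromosome 9 from 125234853 to 125241382, GRCh38) encodes BiP, the HSP70 chaperone of the ER that also keeps the 3 sensors inactive. Its level in WM164 cells was 277, 271 and 271 CPM with GFP and 391, 405 and 415 CPM with MAFG. The MAFG libraries were all above the GFP libraries, with a wide gap. The log2 fold change was 0.57 (SE 0.05), a rise of 1.48-fold with an adjusted p of 8.93e-08 by edgeR, and this was the largest change of the ER arm in this line. HSP90B1, which encodes the ER chaperone GRP94, stood at 913, 891 and 922 CPM with GFP and at 1173, 1207 and 1247 CPM with MAFG. Its libraries did not overlap, and its log2 fold change was 0.41 (SE 0.05, adjusted p = 4.67e-06 by edgeR). HSP90B1 shares exon sequence with UQCC6 and TTC41P on the opposite strand, and the use of strand in counting is not stated.

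SEL1L, the adaptor of the ubiquitin ligase that carries out ERAD, was at 82.9, 86.2 and 90.3 CPM with GFP and at 115, 118 and 117 CPM with MAFG. These libraries did not overlap either, and the log2 fold change was 0.43 (SE 0.06, adjusted p = 1.01e-05 by edgeR). EDEM1, which hands misfolded glycoproteins to ERAD, rose by 0.40 (SE 0.06) on the log2 scale. The protein disulfide isomerases PDIA4 and PDIA6, which form and correct disulfide bonds, rose by 0.38 (SE 0.05) and 0.31 (SE 0.05). MANF, a secreted ER stress protein, rose by 0.34 (SE 0.07), its relative in function CRELD2 by 0.32 (SE 0.07) and the BiP co-chaperone DNAJC3 by 0.30 (SE 0.08), with adjusted p-values by edgeR of 8.65e-05 to 0.00473 for EDEM1, MANF, CRELD2 and DNAJC3. CRELD2 shares exons with ALG12 and PDIA6 with ATP6V1C2, both on the opposite strand.

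Among the sensors and their factors, XBP1 was the member that passed in WM164 cells. It was at 86.8, 91.9 and 86.8 CPM with GFP and at 111, 106 and 108 CPM with MAFG, with no overlap, a log2 fold change of 0.29 (SE 0.06) and an adjusted p of 0.000517 by edgeR. These counts hold spliced and unspliced XBP1 together, so IRE1 activity cannot be read from them. ERN1 was at 8.15, 11 and 10.2 CPM with GFP and at 11.6, 11.5 and 12.1 CPM with MAFG. All its MAFG libraries were above its GFP libraries, but it did not pass, with a log2 fold change of 0.26 (SE 0.12, adjusted p = 0.110 by edgeR).

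ATF6 was at 41.8, 50.6 and 45.3 CPM with GFP and at 44.3, 47.0 and 42.9 CPM with MAFG, and its groups overlapped (log2 fold change -0.04, interval of 2 SE from -0.19 to 0.12, adjusted p = 0.763 by edgeR). EIF2AK3 was at 21.8, 22.1 and 24.0 CPM with GFP and at 22.9, 20.9 and 21.1 CPM with MAFG, again with overlap (log2 fold change -0.06, interval -0.23 to 0.10). The other 4 genes that did not pass were SDF2L1, a member of an ER chaperone complex, at a log2 fold change of 0.07, HERPUD1, an ERAD protein of the ER membrane, at 0.06, the lectin chaperone CALR at 0.03 and the BiP co-chaperone DNAJB9 at -0.03. Of the 6 genes with an ERSE in their window, HSPA5, HSP90B1, XBP1, PDIA6 and CRELD2 passed and CALR did not, and 5 genes without one (SEL1L, EDEM1, PDIA4, MANF and DNAJC3) passed too.

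**Figure D1:**
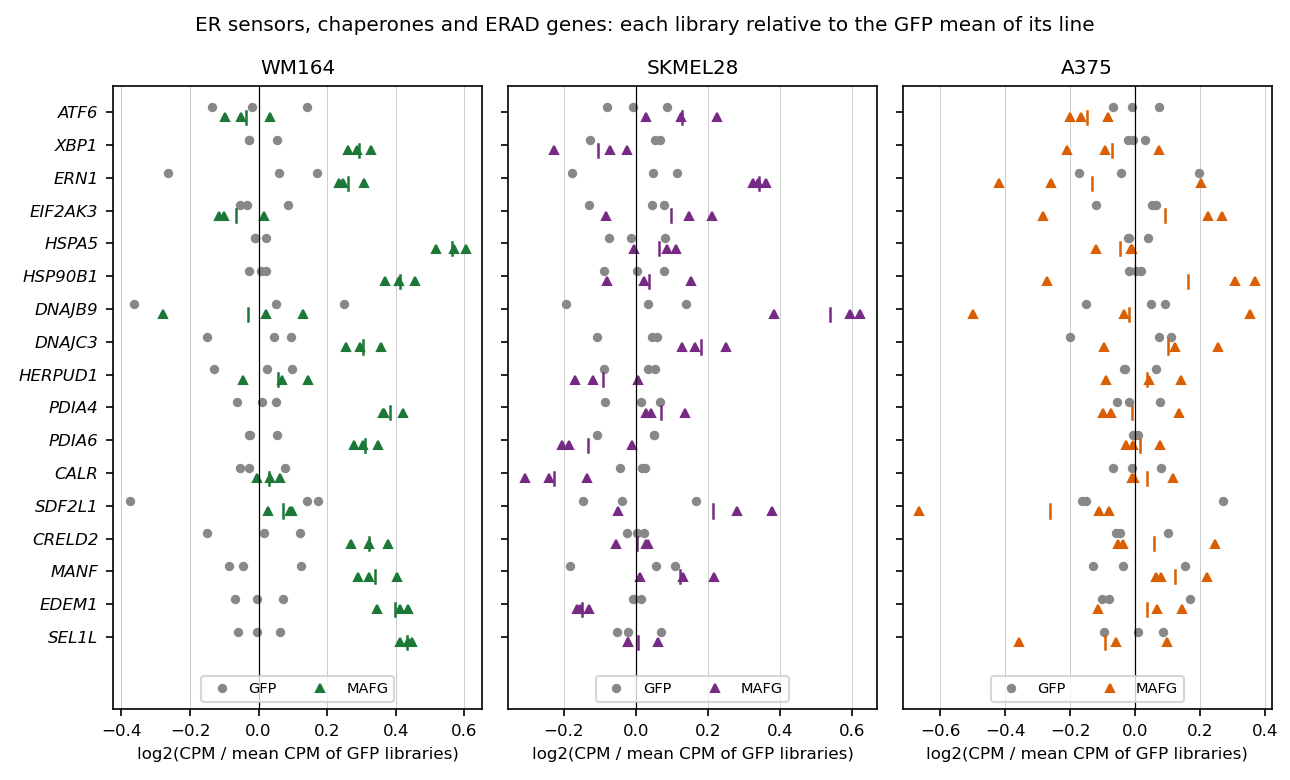
Level of each gene of the ER arm in every library, as the log2 ratio of its CPM to the mean CPM of the 3 GFP libraries of the same line (x axis). Grey circles are GFP libraries, triangles MAFG libraries and short lines the mean of the MAFG triangles. In WM164 cells the triangles of HSPA5 lie furthest to the right and 11 of 17 genes have all triangles to the right of all circles, while in A375 cells the libraries overlap for 16 of 17 genes.

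The ATF4 arm did not move one way in WM164 cells. Of 19 genes tested (STC2 had too few reads), 6 were higher (ALDH1L2, SESN2, ATF5, PPP1R15A, DDIT4 and ASNS) and 4 were lower (NUPR1, PHGDH, DDIT3 and ATF4), with a median log2 fold change of -0.05 against 0.00 over all genes, and of 0.17 against 0.14 on the log2(TPM + 1) scale. The background is the same 16.2% higher and 15.6% lower. MAFG libraries were all above GFP libraries for 6 genes and all below for 5, against 22.5% and 20.9% of all genes. Several of these calls were close to the threshold. The count of higher genes fell to 3 without the GFP library 1, to 2 without the GFP library 3, and to 3 without either the MAFG library 2 or 3, and that of lower genes fell to 2 without the GFP library 2 or the MAFG library 1.

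ATF4 itself (ENSG00000128272.14, chromosome 22 from 39519695 to 39522683, GRCh38), the factor that gives the arm its name, was at 247, 241 and 232 CPM with GFP and at 208, 223 and 217 CPM with MAFG in WM164 cells. The groups did not overlap but lay close together, with a log2 fold change of -0.15 (SE 0.05, adjusted p = 0.0337 by edgeR). On the deposited TPM scale the value was 0.01 and did not pass, and ATF4 protein is set mainly by translation, which these counts do not show. DDIT3, which encodes the stress-induced factor CHOP, was at 12.0, 12.6 and 12.0 CPM with GFP and at 10.2, 9.85 and 9.96 CPM with MAFG, a log2 fold change of -0.29 (SE 0.10, adjusted p = 0.0419 by edgeR). DDIT3 shares exons with MARS1 and MBD6 on the opposite strand and with an unnamed gene on its own strand. Leaving out any of the 6 libraries ended its call (adjusted p = 0.0605 to 0.108 by edgeR). The call for ATF4 was lost without the GFP library 1 or 2 or the MAFG library 1 (adjusted p = 0.0668 to 0.165 by edgeR).

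ALDH1L2, the mitochondrial 10-formyltetrahydrofolate dehydrogenase of folate metabolism, had the largest rise of all 37 genes and was the sole member past a fold change of 2 in this line (background 4.94% higher and 2.0% lower past that fold). Its level was 8.55, 9.66 and 8.66 CPM with GFP and 23.4, 21.2 and 19.0 CPM with MAFG. The 2 groups were far apart, with a log2 fold change of 1.24 (SE 0.11), which is 2.36-fold, and an adjusted p of 4.94e-08 by edgeR. ALDH1L2 shares exon sequence with WASHC4 and NOPCHAP1 on the opposite strand.

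SESN2, a leucine sensor that restrains mTORC1, was at 5.48, 7.41 and 4.78 CPM with GFP and at 8.07, 8.49 and 8.77 CPM with MAFG (log2 fold change 0.51, SE 0.15, adjusted p = 0.0161 by edgeR). ATF5, a factor related to ATF4, was at 5.88, 4.88 and 5.38 CPM with GFP and at 6.39, 8.0 and 7.54 CPM with MAFG (log2 fold change 0.44, SE 0.14, adjusted p = 0.0263 by edgeR). In both genes the groups did not overlap but the nearest libraries were close. PPP1R15A, which encodes GADD34, the subunit that brings a phosphatase to eIF2 and so ends the response, rose by 0.37 (SE 0.11), DDIT4, an inhibitor of mTORC1, by 0.36 (SE 0.07) and ASNS, asparagine synthetase, by 0.23 (SE 0.08) on the log2 scale. Without the GFP library 3 of this line, SESN2 was at 0.38 (adjusted p = 0.0889 by edgeR) and PPP1R15A at 0.25 (adjusted p = 0.107 by edgeR), and neither passed. SESN2 was also lost without the GFP library 1 or the MAFG library 3, PPP1R15A without the GFP library 1 or the MAFG library 2, ATF5 without the GFP library 2 or 3 or the MAFG library 2 or 3, and ASNS without any library but the GFP library 2.

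NUPR1, a small stress-induced chromatin protein, had the largest fall of the arm in WM164 cells. It was at 45.9, 43.3 and 42.6 CPM with GFP and at 22.8, 22.4 and 22.8 CPM with MAFG, groups that did not come near each other. The log2 fold change was -0.96 (SE 0.07, adjusted p = 1.15e-08 by edgeR). NUPR1, like ASNS and DDIT3, overlaps exons of an unnamed gene on its own strand. PHGDH, which catalyses the opening step of serine synthesis, was at 165, 149.8 and 153 CPM with GFP and at 109, 108 and 108 CPM with MAFG. Here too the groups were well apart, with a log2 fold change of -0.53 (SE 0.06, adjusted p = 8.04e-07 by edgeR). The later enzymes of the same pathway did not pass, with PSAT1 at -0.05 and PSPH at -0.15 on the log2 scale, and neither did SHMT2 (-0.10) and MTHFD2 (-0.11), which pass the serine carbon on into mitochondrial folate. PSPH has a near-identical pseudogene, so its counts are uncertain.

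Of the remaining 5 genes tested in WM164 cells, none passed. PCK2, the mitochondrial carboxykinase of gluconeogenesis, was at 0.16, the factor CEBPB at 0.15, the pseudokinase TRIB3 at -0.04, the glutathione-degrading enzyme CHAC1 at -0.08 (SE 0.51) and the lipoprotein receptor VLDLR at -0.21 on the log2 scale. CHAC1 was near the limit of these libraries, with 11 to 27 reads in each.

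**Figure D2:**
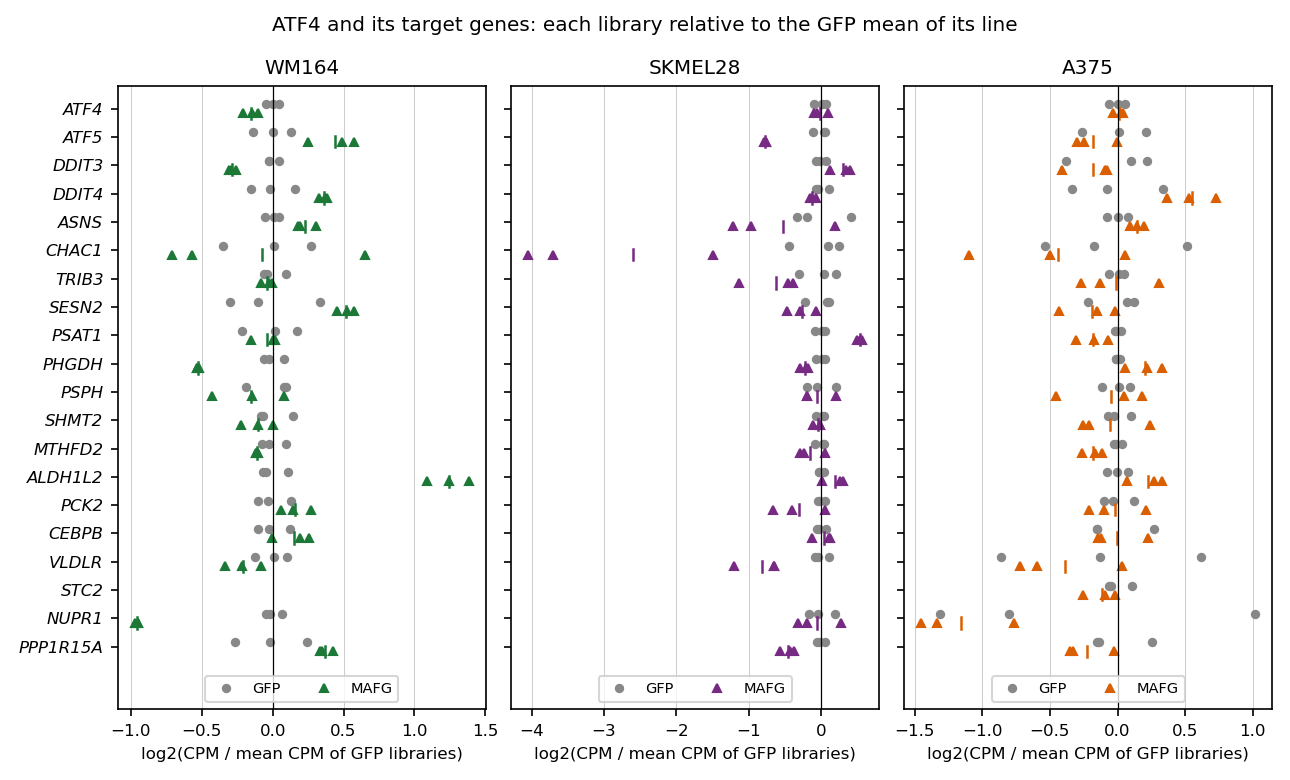
Level of each gene of the ATF4 arm in every library, as the log2 ratio of its CPM to the mean CPM of the 3 GFP libraries of the same line (x axis, with a different range in each panel). Grey circles are GFP libraries, triangles MAFG libraries and short lines the mean of the MAFG triangles. STC2 is drawn in A375 cells only. ALDH1L2 and NUPR1 stand apart in opposite directions in WM164 cells and CHAC1 lies furthest left in SKMEL28 cells.

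In SKMEL28 cells more genes of the ATF4 arm were lower than higher with MAFG, but most did not pass, and few genes of the ER arm passed. Of 19 genes of the ATF4 arm tested, 6 were lower (CHAC1, VLDLR, ATF5, TRIB3, PPP1R15A and PHGDH) and 1 was higher (PSAT1) by edgeR, against 15.3% and 14.6% of all 15523 genes tested. The median log2 fold change of the arm was -0.15, and -0.01 over all genes. The MAFG libraries were all below the GFP libraries for 6 genes and all above for 2, against 21.9% and 21.2% of all genes.

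CHAC1, a late target of ATF4 and CHOP that breaks down glutathione, showed the largest change of any member in any line and was the sole member past a fold change of 2 in SKMEL28 cells (background 2.98% lower and 1.76% higher past that fold). Its level was 2.13, 1.92 and 1.32 CPM with GFP and 0.639, 0.137 and 0.108 CPM with MAFG, which are 67, 41 and 40 reads and 20, 4 and 3 reads. The groups did not overlap, but the MAFG libraries differed widely among themselves. The log2 fold change was -2.56 (SE 0.56, interval of 2 SE from -3.67 to -1.44, adjusted p = 0.00239 by edgeR), and with so few reads its size is poorly set.

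VLDLR was at 11.2, 10.1 and 9.80 CPM with GFP and at 6.64, 4.52 and 6.60 CPM with MAFG, with no overlap (log2 fold change -0.81, SE 0.16, adjusted p = 0.00121 by edgeR). ATF5 was at 22.3, 22.1 and 19.8 CPM with GFP and at 12.4, 12.6 and 12.6 CPM with MAFG. Its groups were far apart, with a log2 fold change of -0.77 (SE 0.10, adjusted p = 1.63e-05 by edgeR), opposite in sign to the change in WM164 cells. ATF5 shares exons with IL4I1 and NUP62 on the opposite strand, and VLDLR with VLDLR-AS1. TRIB3, which binds ATF4 and CHOP and limits their action, fell by 0.61 (SE 0.18), PPP1R15A by 0.45 (SE 0.07) and PHGDH by 0.22 (SE 0.06) on the log2 scale. TRIB3 was lost without either of the GFP libraries 1 and 2 or the MAFG library 3 (adjusted p = 0.0674 to 0.0784 by edgeR), and PHGDH without the MAFG library 1 (adjusted p = 0.0560 by edgeR).

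PSAT1, the transaminase of serine synthesis, moved the other way. It was at 27.5, 25 and 26.8 CPM with GFP and at 39.3, 38.4 and 37.3 CPM with MAFG, groups that did not overlap, with a log2 fold change of 0.53 (SE 0.07, adjusted p = 5.73e-05 by edgeR). Serine synthesis was thus split in this line, with PHGDH lower, PSAT1 higher and PSPH at -0.04 without passing.

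The factors at the head of the arm did not pass in SKMEL28 cells. ATF4 was at 76.1, 70.4 and 79.4 CPM with GFP and at 70.3, 80.4 and 72.8 CPM with MAFG, with full overlap (log2 fold change -0.02, interval of 2 SE from -0.15 to 0.12). DDIT3 was at 8.85, 8.42 and 8.08 CPM with GFP and at 10.8, 9.24 and 11.2 CPM with MAFG. All MAFG libraries of DDIT3 were above the GFP libraries, but the test was not passed (log2 fold change 0.30, SE 0.13, adjusted p = 0.0938 by edgeR). The other 10 genes that did not pass ranged from ASNS at -0.54 (SE 0.30) to ALDH1L2 at 0.20 (SE 0.10) on the log2 scale, and ASNS had 1 MAFG library at 6.14 CPM beside 2.30 and 2.74 CPM.

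In the ER arm of SKMEL28 cells, 2 of 17 genes were higher (DNAJB9 and ERN1) and 1 was lower (CALR), with a median log2 fold change of 0.06. The background is the same 14.6% and 15.3%, and MAFG libraries were all above GFP libraries for 3 genes and all below for 2. DNAJB9, a BiP co-chaperone that returns IRE1 to its inactive state, was at 13.1, 11.2 and 14.1 CPM with GFP and at 16.7, 19.7 and 19.3 CPM with MAFG (log2 fold change 0.53, SE 0.11, adjusted p = 0.00178 by edgeR). ERN1 was at 8.82, 10.8 and 10.3 CPM with GFP and at 12.8, 12.6 and 12.5 CPM with MAFG (log2 fold change 0.35, SE 0.12, adjusted p = 0.0367 by edgeR). In both the groups were apart, but leaving out any library other than the GFP library 2 ended the call for ERN1 (adjusted p = 0.0590 to 0.163 by edgeR).

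CALR was at 786, 750.1 and 782 CPM with GFP and at 624, 654 and 703 CPM with MAFG, all of the latter below the former (log2 fold change -0.23, SE 0.06, adjusted p = 0.00796 by edgeR), and the call was lost without the MAFG library 1 (adjusted p = 0.0596). HSPA5, the gene with the largest rise of the arm in WM164 cells, was here at 471, 423 and 441 CPM with GFP and at 443, 480.3 and 472 CPM with MAFG. Its groups overlapped, with a log2 fold change of 0.06 and an interval of 2 SE from -0.06 to 0.18. XBP1 was at 78.5, 68.7 and 77.8 CPM with GFP and at 73.7, 71.4 and 64.1 CPM with MAFG, with overlap (log2 fold change -0.11, interval -0.25 to 0.04).

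ATF6 was at 58.9, 52.5 and 55.2 CPM with GFP and at 60.5, 56.6 and 64.9 CPM with MAFG (log2 fold change 0.13, interval of 2 SE from -0.01 to 0.26). EIF2AK3 was at 31.6, 27.4 and 30.9 CPM with GFP and at 33.2, 34.7 and 28.3 CPM with MAFG (log2 fold change 0.10, interval -0.08 to 0.28). Both sensors overlapped between the groups. On the log2(TPM + 1) scale the ER arm of this line had 1 gene higher and 3 lower with a median of -0.11, where the median of all genes moved by -0.14.

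In A375 cells no member passed, and the libraries varied more, the MAFG library 1 most of all (mean chi-square per gene of 68.7 and 96.7 against the MAFG libraries 2 and 3, which gave 15.8 against each other). Of 37 genes tested, 0 were higher and 0 lower by edgeR, as by DESeq2, against 0.78% and 0.0634% of all 15779 genes tested, and 1 gene (DDIT4) had an unadjusted p under 0.05. Past a fold change of 2 the background was 0.646% higher and 0.019% lower. The median log2 fold change was -0.09 over the 20 genes of the ATF4 arm and 0.01 over the 17 of the ER arm, against 0.00 over all genes. The median SE of a log2 fold change over all genes was 0.176 in A375 cells, 0.110 in WM164 cells and 0.119 in SKMEL28 cells. MAFG and GFP libraries were apart for 6 of the 37 genes (DDIT4, PHGDH and ASNS above, PSAT1, MTHFD2 and ATF6 below), against 7.21% of all genes above and 5.55% below.

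DDIT4 was at 8.62, 10.3 and 13.7 CPM with GFP and at 18, 14.0 and 15.7 CPM with MAFG in A375 cells, the largest positive log2 fold change of the list (0.55, SE 0.19, adjusted p = 0.472 by edgeR). In the model of all 18 libraries it passed, at 0.56 (adjusted p = 0.0222 by edgeR). NUPR1 had the most negative value, -1.15 (SE 0.66), and rested on 1 GFP library, with 0.549, 0.783 and 2.77 CPM with GFP and 0.541, 0.803 and 0.499 CPM with MAFG. HSP90B1 was at 422, 411 and 417 CPM with GFP and at 345, 538 and 515 CPM with MAFG. The MAFG library 1 stood apart from the other two in this gene, and without it HSP90B1 passed, at a log2 fold change of 0.34 (SE 0.07, adjusted p = 0.0223 by edgeR).

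The head of the ATF4 arm and the ER sensors overlapped between the groups of A375 cells for all but ATF6. ATF4 was at 170.2, 184 and 178 CPM with GFP and at 182, 180.1 and 173 CPM with MAFG (log2 fold change 0.01, interval of 2 SE from -0.17 to 0.19). DDIT3 was at 7.92, 8.61 and 5.69 CPM with GFP and at 5.58, 7.02 and 6.96 CPM with MAFG (log2 fold change -0.18, interval -0.60 to 0.23). HSPA5 was at 359 and 360 CPM in the GFP libraries 2 and 3, somewhat higher in library 1 (mean 365 ± 9.29 CPM, SD, n = 3), and at 361, 362 and 335 CPM with MAFG (log2 fold change -0.05, interval -0.22 to 0.12). The interval of HSPA5 lies under the 0.57 measured in WM164 cells, whereas that of DDIT3 is too wide to tell its change from the one in WM164 cells.

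XBP1 was at 36.4, 37.8 and 36.8 CPM with GFP and at 38.9, 34.7 and 32.0 CPM with MAFG in A375 cells. ERN1 was at 6.19, 5.66 and 7.31 CPM with GFP and at 7.34, 5.33 and 4.78 CPM with MAFG. EIF2AK3 was at 8.94, 8.88 and 7.87 CPM with GFP and at 7.04, 10 and 10.3 CPM with MAFG. In these 3 genes the libraries of both groups were interleaved, while ATF6, at 63.9, 60.3 and 57.9 CPM with GFP and at 52.8, 57.3 and 54.1 CPM with MAFG, was lower in every MAFG library without passing (log2 fold change -0.15, SE 0.10, adjusted p = 0.996 by edgeR).

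Whether the response differed between lines was tested as the difference of the MAFG against GFP log2 fold changes, in 1 edgeR model of all 18 libraries. Between WM164 and SKMEL28 cells the response differed for 10 of 37 members at an adjusted p of 0.05 or less, 9 of them more positive in WM164 cells, against 13.7% of all 18767 genes tested in either direction, 7.39% more positive and 6.32% more negative. In the ER arm these were HSPA5 (difference of log2 fold changes 0.51, SE 0.09, adjusted p = 0.000645 by edgeR), EDEM1 (0.55, SE 0.12), PDIA6 (0.45, SE 0.09), SEL1L (0.43, SE 0.12) and XBP1 (0.40, SE 0.12). The median difference of the ER arm was 0.26, and 0.02 over all genes. In the ATF4 arm they were ATF5 (1.22, SE 0.19, adjusted p = 0.000158 by edgeR), ALDH1L2 (1.04, SE 0.15), PPP1R15A (0.83, SE 0.18) and CHAC1 (2.49, SE 0.81, adjusted p = 0.0450), with PSAT1 at -0.58 (SE 0.14), and the median over 19 genes without STC2 was 0.48. In the fits of each line alone, ATF5 and PPP1R15A each passed in both lines in opposite directions. In the model of all 18 libraries PPP1R15A did not pass in WM164 cells (0.37, adjusted p = 0.0658 by edgeR). By limma on log2(TPM + 1) neither gene passed in WM164 cells (adjusted p = 0.0581 for ATF5 and 0.0649 for PPP1R15A).

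Between WM164 and A375 cells the response differed for 7 members, against 9.21% of all genes (4.52% more positive and 4.69% more negative). ALDH1L2 (1.01, SE 0.15), HSPA5 (0.61, SE 0.09), SEL1L (0.53, SE 0.12), PDIA4 (0.38, SE 0.11), ATF5 (0.61, SE 0.19) and PPP1R15A (0.59, SE 0.18) were more positive in WM164 cells and PHGDH more negative (-0.74, SE 0.11). The median difference was 0.27 in the ER arm and 0.13 over 19 genes of the ATF4 arm without STC2, against -0.01 over all genes. Between SKMEL28 and A375 cells the response differed for 4 members of the ATF4 arm, against 9.51% of all genes (3.68% more positive and 5.83% more negative), with PSAT1 more positive in SKMEL28 cells (0.70, SE 0.13) and PHGDH (-0.43, SE 0.11), ATF5 (-0.60, SE 0.18) and DDIT4 (-0.68, SE 0.18) more negative. In the ER arm 0 of 17 passed there by edgeR, with 2 at an unadjusted p under 0.05, and 1 passed by DESeq2. Past a 2-fold difference of response there were 3, 1 and 0 members in the order given, against 5.1%, 4.39% and 4.2% of all genes. These 3 contrasts share libraries in pairs and are not independent. The MAFG library 1 of A375 cells bears on the counts, since without it 17 members differed between WM164 and SKMEL28 cells and 12 between WM164 and A375 cells.

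**Figure D3:**
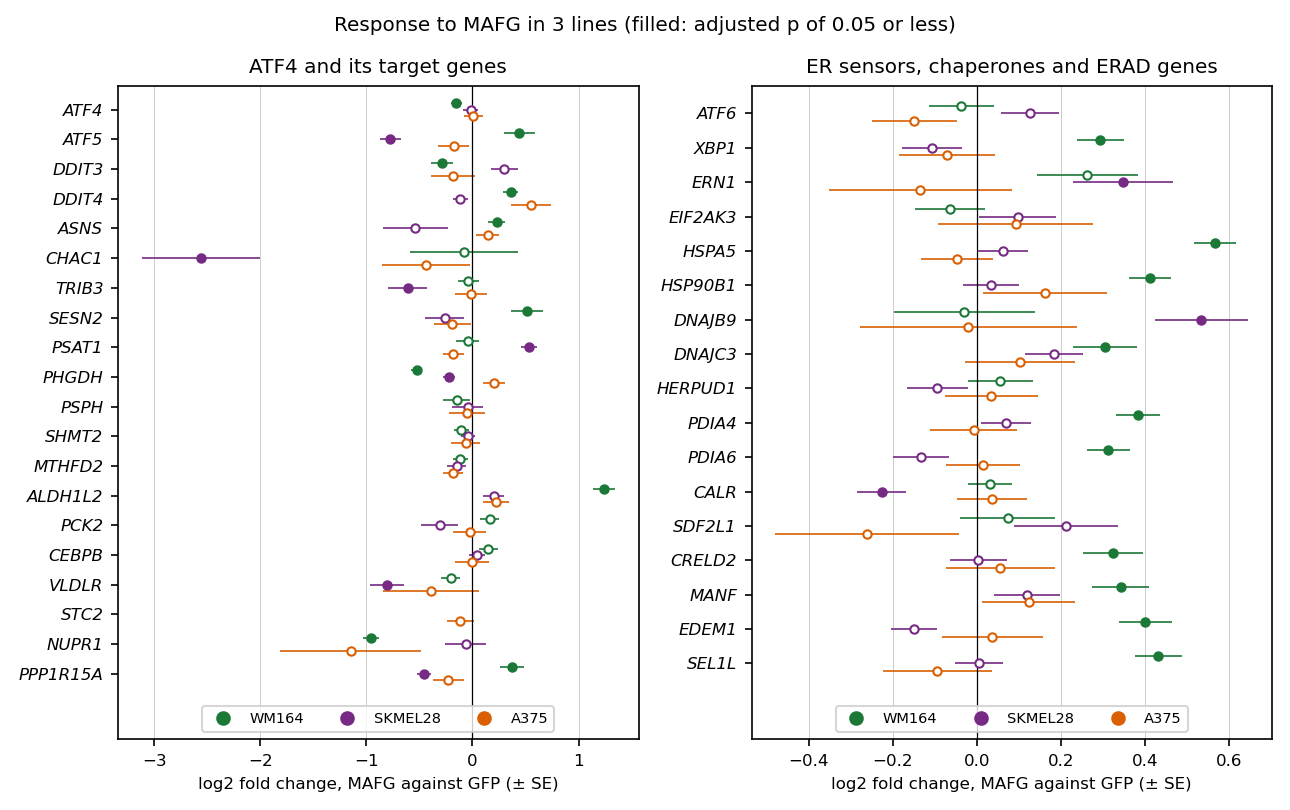
Log2 fold change of each member with MAFG against GFP (x axis), with the ATF4 arm on the left and the ER arm on the right. Points are the 3 lines, bars are 1 SE on either side, and filled points have an adjusted p of 0.05 or less by edgeR. In the ER arm 10 filled points of WM164 cells lie to the right of 0, in the ATF4 arm ATF5 and PPP1R15A are filled on opposite sides of 0 in WM164 and SKMEL28 cells, and no point of A375 cells is filled.

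The summed level of each arm in TPM is set mostly by a few abundant members and by the scale of each library. The 17 ER genes summed to 787, 919 and 893 TPM with GFP and to 1159, 1245 and 1164 TPM with MAFG in WM164 cells, where all MAFG libraries were above. In SKMEL28 cells the sums were 1204, 1181 and 1144 TPM with GFP and 984, 1028 and 1039 TPM with MAFG, all below. In A375 cells they were 999, 925 and 857 TPM with GFP and 771, 998 and 908 TPM with MAFG, and overlapped. The 20 ATF4 arm genes summed to 284 to 337 TPM with GFP and 311 to 345 with MAFG in WM164 cells, 313 to 330.2 and 245 to 273 in SKMEL28 cells, and 373 to 438 and 347 to 387 in A375 cells. The median gene of all tested moved on the log2(TPM + 1) scale too, by 0.14 (WM164), -0.14 (SKMEL28) and -0.10 (A375). On that scale the median of the ER arm was 0.45, -0.11 and -0.09 in the same order of lines.

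The lines also differed before MAFG was added, and the levels in GFP cells give the starting point of each response. At an adjusted p of 0.05 or less by edgeR, 29 of 37 members differed between WM164 and SKMEL28 cells, 32 between WM164 and A375 cells and 33 between SKMEL28 and A375 cells, against 56.8%, 71.5% and 68.6% of all genes tested. Most genes of any kind differed between these lines, so the counts are read against that background. Past a fold of 2 there were 10, 19 and 19 members, against 28.7%, 46.7% and 43.8% of all genes. WM164 cells were higher than SKMEL28 cells for 15 members and lower for 14 (background 27.8% and 29.0%), and higher than A375 cells for 19 and lower for 13 (36.9% and 34.6%). SKMEL28 cells were higher than A375 cells for 21 members and lower for 12 (35.3% and 33.3%). By edgeR on counts, the ER arm was lower in A375 cells for 11 of 17 genes against WM164 cells and for 14 of 17 against SKMEL28 cells, with median log2 differences of 0.79 and 0.85 in favour of the other line, where the medians of all genes were 0.08 and 0.06. Levels between lines were not tested in TPM. On that scale the summed ER arm with GFP was not lower in A375 cells (857 to 999 TPM) than in WM164 cells (787 to 919 TPM). In SKMEL28 cells it was 1144 to 1204 TPM. The ATF4 arm was split, with 8 genes higher and 10 lower in WM164 than in A375 cells, and 7 higher and 10 lower in SKMEL28 than in A375 cells.

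Per length, CALR was the most abundant member in GFP cells of SKMEL28 and A375, at 398 ± 11.9 and 457 ± 28.0 TPM, and HSP90B1 in WM164, at 257 ± 26.1 TPM. The sensor ERN1 was at 1.03 ± 0.255 TPM and CHAC1 at 0.297 ± 0.0862 TPM in WM164 cells. For ATF4 the level was 109 ± 10.1 TPM in WM164, 99.9 ± 10 in A375 and 48.3 ± 1.06 in SKMEL28 cells.

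On the CPM scale set over all 18 libraries, ATF4 differed in level between all 3 lines, at 254 ± 7.80 CPM in WM164, 159.5 ± 6.08 in A375 and 78.9 ± 4.40 in SKMEL28 cells with GFP. In TPM the GFP libraries of WM164 (99.33 to 119.51) and A375 cells (88.4 to 106.92) overlapped, so the difference between these lines depended on the scale. The log2 difference was 1.69 (SE 0.07) between WM164 and SKMEL28 cells. Asparagine synthetase, its target, was at 24.5 ± 0.903, 25.1 ± 1.28 and 5.60 ± 1.62 CPM in the same order of lines. ASNS was lower in SKMEL28 cells than in either other line (log2 differences of 2.11 in favour of WM164 and -2.15 against A375), while WM164 and A375 cells did not pass a test of their difference.

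Other genes of the ATF4 arm followed other orders. NUPR1 was at 46.5 ± 1.76 CPM in WM164 cells, at 5.16 ± 0.637 CPM in SKMEL28 cells and at 1.23 ± 1.09 CPM in A375 cells, a log2 difference of 5.25 (SE 0.32) between WM164 and A375. VLDLR (28.9 ± 2.25, 10.8 ± 0.762 and 1.58 ± 0.789 CPM) and DDIT4 (81.8 ± 8.6, 49.7 ± 3.44 and 9.79 ± 2.33 CPM) followed the same order of lines. The opposite order held for ATF5, at 5.69 ± 0.518, 22.4 ± 1.56 and 48.6 ± 7.78 CPM, and for PSAT1, at 14.4 ± 1.87, 27.7 ± 1.25 and 108 ± 1.60 CPM. All neighbours in these 5 orders differed at an adjusted p of 0.05 or less by edgeR.

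PPP1R15A was low in WM164 cells, at 15.0 ± 2.68 CPM against 91.4 ± 2.99 in SKMEL28 and 59.6 ± 9.72 in A375 cells, which is a log2 difference of -2.60 (SE 0.14) from SKMEL28. MTHFD2 and SHMT2, which feed folate metabolism in mitochondria, were highest in A375 cells, at 109 ± 1.96 and 144 ± 8.53 CPM, and ALDH1L2 was lowest in WM164 cells, at 9.48 ± 0.669 CPM against 17.8 ± 0.435 in SKMEL28 and 19.0 ± 1.02 in A375 cells. SKMEL28 and A375 cells did not pass a test of their difference in ALDH1L2 (log2 difference -0.10, interval of 2 SE from -0.31 to 0.12).

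STC2, a secreted glycoprotein induced by ER stress and hypoxia, was a gene of A375 cells in these data. It had 588, 636 and 554 reads in the GFP libraries of A375 cells and 552, 593 and 637 in the MAFG libraries, against 0, 0 and 1 with GFP and 0, 0 and 0 with MAFG in WM164 cells and 2, 0, 4, 10, 1 and 3 in the 6 libraries of SKMEL28 cells. No fold change is given for it in WM164 and SKMEL28 cells, where it was at or near a floor of 3 reads. In A375 cells its log2 fold change with MAFG was -0.11 (SE 0.13).

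In the ER arm, EIF2AK3 was highest in SKMEL28 cells, at 31.4 ± 2.27 CPM, then WM164, at 23.9 ± 1.26, and A375, at 7.71 ± 0.564, with a log2 difference of 2.02 (SE 0.12) between SKMEL28 and A375 cells. ERN1 was at 10.4 ± 1.59, 10.4 ± 1.07 and 5.75 ± 0.738 CPM in WM164, SKMEL28 and A375 cells, and XBP1 at 93.7 ± 3.27, 78.5 ± 5.42 and 33.3 ± 0.722 CPM. In TPM ERN1 was at 1.03 ± 0.255, 1.73 ± 0.575 and 1.43 ± 0.661 in the same order of lines, so A375 cells were not lowest on that scale. On the CPM scale ATF6 varied least of the sensors, at 48.6 ± 4.83, 58.2 ± 3.22 and 54.6 ± 2.83 CPM. Its passing difference was that between WM164 and SKMEL28 cells (-0.26, SE 0.08). In TPM ATF6 was at 3.66 ± 0.751, 6.45 ± 0.353 and 5.81 ± 1.03 in the same order of lines, and did not vary least on that scale. HSPA5 was lowest in WM164 cells, the line in which it rose, at 289 ± 3.18 CPM against 466 ± 24.7 in SKMEL28 and 328 ± 8.69 in A375 cells, with a log2 difference of -0.69 (SE 0.06) from SKMEL28 cells. The protein disulfide isomerases PDIA4 and PDIA6 were highest in WM164 cells, at 316 ± 12.7 and 457 ± 14.8 CPM, and lowest in A375 cells, at 121 ± 5.28 and 183 ± 0.912 CPM.

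**Figure D4:**
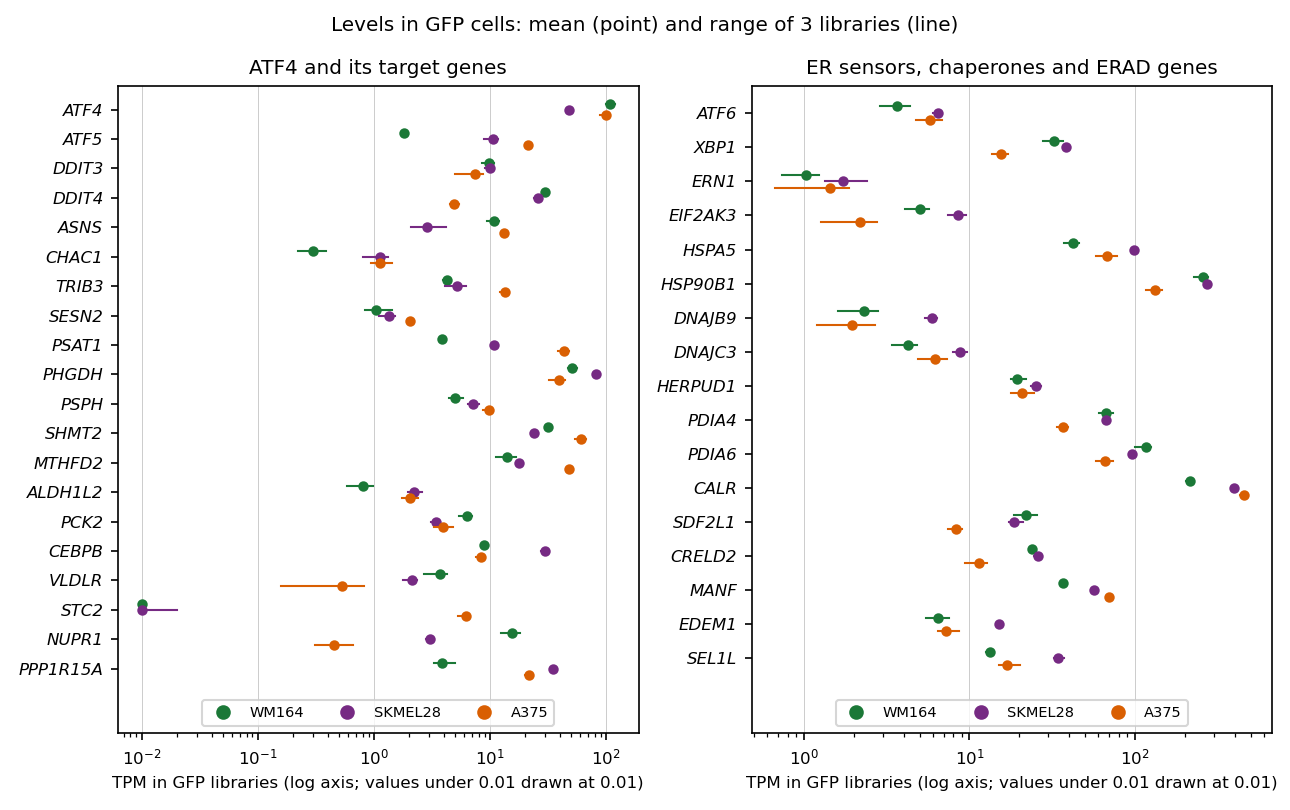
Level of each member in GFP cells in TPM, which corrects for gene length, on a log axis. Points are the mean of 3 libraries in each line and lines their range, and values under 0.01 are drawn at 0.01. CALR and HSP90B1 lie furthest to the right, STC2 is seen in A375 cells and is at or near 0 in the others, and NUPR1, VLDLR and DDIT4 fall from WM164 to SKMEL28 to A375 cells.

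Further genes of the same pathways, not on the list of 37, were counted in the same fits, where 16.2% of all genes were higher and 15.6% lower in WM164 cells, 14.6% and 15.3% in SKMEL28 cells, and 0.78% and 0.0634% in A375 cells. Of 15 other ER folding genes, 11 were higher and 1 lower in WM164 cells, 1 higher and 1 lower in SKMEL28 cells and 0 either way in A375 cells. The chaperone HYOU1, which exchanges the nucleotide of BiP, rose from 116 ± 2.66 to 187 ± 6.65 CPM in WM164 cells (log2 fold change 0.68, SE 0.05, adjusted p = 1.66e-08 by edgeR) and fell by 0.20 (SE 0.06) in SKMEL28 cells. The ER oxidase ERO1B rose by 0.71 (SE 0.09) in WM164 cells, and the 1 gene that fell there, named after its value was seen, was the disulfide isomerase TXNDC5, by 0.32 (SE 0.06). In SKMEL28 cells TXNDC5 was the 1 gene that rose, by 0.22 (SE 0.06). Of 13 further ERAD genes and XBP1 targets, 5 were higher and 0 lower in WM164 cells, among them the ubiquitin ligase SYVN1 (0.57, SE 0.06) and the ER membrane protein WFS1 (0.60, SE 0.10), and in SKMEL28 cells 1 was higher and 2 were lower (EDEM2 at -0.43 and OS9 at -0.17).

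Among 12 cytosolic aminoacyl-tRNA synthetases, 4 were higher and 2 lower in WM164 cells and 2 higher and 5 lower in SKMEL28 cells. WARS1, the tryptophan enzyme, rose in both lines (0.69, SE 0.05, and 0.33, SE 0.06), CARS1 rose by 0.37 (SE 0.08) in WM164 cells and YARS1 fell by 0.39 (SE 0.07) in SKMEL28 cells. Of 8 amino acid transporters tested, 2 were higher and 4 lower in WM164 cells and 1 higher and 4 lower in SKMEL28 cells. SLC7A11, the cystine importer, which is also a known target of the small MAF partner NRF2, fell from 60.0 ± 3.37 to 39.1 ± 0.380 CPM in WM164 cells and from 68.9 ± 5.00 to 17.3 ± 0.873 CPM in SKMEL28 cells, log2 fold changes of -0.62 (SE 0.07) and -1.99 (SE 0.08, adjusted p = 5.01e-11 by edgeR). Its heavy chain SLC3A2 fell by 0.47 (SE 0.06) in SKMEL28 cells, and the leucine importer SLC7A5 by 0.64 (SE 0.06) in WM164 cells.

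Of 12 other ATF4 targets, 3 were higher and 2 lower in WM164 cells, near the share of all genes, with the folate enzyme MTHFD1L at 0.48 (SE 0.07) and the secreted factor GDF15 at -0.73 (SE 0.08), and in SKMEL28 cells 1 was higher, the proline synthesis enzyme ALDH18A1 (0.40, SE 0.07), and 0 were lower. Of 14 genes of eIF2, its other kinases and its exchange factor, 2 were higher and 1 lower in WM164 cells, no more than the share of all genes, and 2 higher and 0 lower in SKMEL28 cells, with EIF2S1, the subunit that is phosphorylated, higher in both (0.47, SE 0.07, and 0.22, SE 0.06). Chaperones of other compartments gave a comparison outside the ER. Of 12 cytosolic heat shock genes, 2 were higher and 4 lower in WM164 cells, with HSPB1 at -0.39 (SE 0.05) and HSPA1A, which shares reads with the near-identical HSPA1B, at -0.55 (SE 0.08). In SKMEL28 cells 4 of the 12 were higher and 2 lower, with DNAJA1 at 0.53 (SE 0.06) and HSPB1 at 0.37 (SE 0.07). Of 9 mitochondrial chaperones and proteases, 1 was higher and 2 lower in WM164 cells (TRAP1 at -0.22) and 4 higher and 2 lower in SKMEL28 cells (HSPE1 at 0.38). In A375 cells 0 genes of these 8 lists passed in either direction by edgeR.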

How the data were processed

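Total RNA of 18 libraries was sequenced by the submitters, 3 per group. Per the labels and the study's methods, reads were trimmed with cutadapt 1.8.1 and aligned to GRCh38 with STAR 2.7.7a, and the processing notes also name RSEM 1.3.0 and DESeq2. The deposited counts are whole reads per GENCODE gene, made by the authors with featureCounts and not normalized. The deposited TPM values, which correct for gene length and library size, were made by the authors, and were not rescaled here. The labels name a non-stranded library kit and the methods a strand-specific one, and strand use in counting is not given in the sources used here, so genes with antisense overlaps are uncertain.

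Libraries were grouped by their GEO labels. Per line, genes passing edgeR's filterByExpr were tested in 6 libraries with edgeR 4.0.16 (TMM scaling, quasi-likelihood test) in R 4.3.3, and p-values were adjusted by Benjamini-Hochberg over all genes tested. Responses and GFP levels were compared between lines in 1 model of 18 libraries over all genes. SE is the log2 difference divided by the root of the F statistic, intervals are the estimate ± 2 SE, and a call is an adjusted p of 0.05 or less. Alternatives were the study's fold limit of 2, DESeq2 1.42.0, edgeR with DESeq2 size factors, a minimum of 10 reads per library or no minimum, a block for the replicate number, other sets of libraries in the fit and each library left out. Another was limma 3.58.1 on log2(TPM + 1) or log2(TPM + 0.1) for genes with a TPM of 1 or more in 3 libraries. CPM values use the TMM scaling of the 6 libraries of a line, and those of GFP levels the scaling of all 18. Replicates of a group differed by more than counting noise (mean chi-square per gene 5.9 to 96.7, highest for pairs with A375 MAFG library 1). An exact permutation test of 3 against 3 libraries cannot go below p = 0.1. Scripts were tested on simulated counts. The named genes are all 37 members and, for each further pathway list, genes from the pair with the smallest adjusted p in a line. Not every gene of such a pair is named, and TXNDC5 in WM164 cells is named outside this rule. Members and lists were chosen with earlier results of these data known. Promoter windows are from RefSeq on GRCh38.p14, gene positions from GENCODE on GRCh38.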

Additional observations from a re-analysis of the deposited data

Results flagged for a closer look

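Differences of response between lines, tested in the 18-library model with edgeR, were picked out for 21 pairs of a gene and a contrast, all at an adjusted p of 0.05 or less. Values are the MAFG against GFP log2 fold change of the line named before minus that of the line named after. Between WM164 and SKMEL28 cells they were 0.51 for HSPA5, 0.55 for EDEM1, 0.45 for PDIA6, 0.43 for SEL1L and 0.40 for XBP1 in the ER arm, and 2.49 for CHAC1, 1.22 for ATF5, 1.04 for ALDH1L2, 0.83 for PPP1R15A and -0.58 for PSAT1 in the ATF4 arm. Between WM164 and A375 cells they were 0.61 for HSPA5, 0.53 for SEL1L, 0.38 for PDIA4, 1.01 for ALDH1L2, 0.61 for ATF5, 0.59 for PPP1R15A and -0.74 for PHGDH. Between SKMEL28 and A375 cells they were 0.70 for PSAT1, -0.43 for PHGDH, -0.60 for ATF5 and -0.68 for DDIT4. Single libraries that stand apart were not among the items flagged here. Pairs of replicates were compared in every group, and the highest mean chi-square values per gene were those of A375 MAFG library 1 (68.7 and 96.7).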

How the results depend on the processing

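Directions and calls of the ER arm in WM164 cells held best: 10 genes were higher and 0 lower whichever library was left out (10 to 10 and 0 to 0). On both TPM scales 9 were higher, since DNAJC3 did not pass there (adjusted p = 0.075 and 0.0753 by limma). The fold limit of 2 left 0 higher. ATF4 arm genes higher in WM164 cells went from 6 to 3 in 1 model of 18 libraries, 2 on log2(TPM + 1), 2 on log2(TPM + 0.1), 1 past 2-fold, and 2 to 5 with a library left out. Those lower went from 4 to 2, 1, 1 and 0 in the same order, and 2 to 3. In SKMEL28 cells ATF4 arm genes higher went from 1 to 0 past 2-fold (1 to 2 with a library left out, 2 without MAFG library 3), and lower from 6 to 1 past 2-fold (5 to 8). There, ER arm genes higher went from 2 to 1 in the 18-library model, without a count filter and on both TPM scales, and to 0 past 2-fold (1 to 3, with 1 without GFP library 1 or 3 or MAFG library 1 or 2). Those lower went from 1 to 2 with at least 10 counts, 3 on both TPM scales and 0 past 2-fold (0 to 2, with 2 without GFP library 2 or MAFG library 3 and 0 without MAFG library 1). In A375 cells 1 ATF4 arm gene (DDIT4) was higher in the 18-library model, and leaving out libraries gave 0 to 0 in both directions, against 0 to 1 higher (HSP90B1, without MAFG library 1) and 0 to 0 lower in the ER arm.

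Response differences moved more. WM164 against SKMEL28 went from 10 to 21 with the 2 lines alone, 16 with DESeq2, 3 past 2-fold and 7 to 17 with a library left out. WM164 against A375 went from 7 to 4 with the 2 lines alone, 1 past 2-fold and 4 to 12, with 4 without WM164 GFP library 3, WM164 MAFG library 2 or 3, or A375 MAFG library 2 or 3. SKMEL28 against A375 went from 4 to 7 without a count filter, 1 with the 2 lines alone, 0 past 2-fold and 2 to 5, with 2 without A375 GFP library 2 or SKMEL28 GFP library 1. GFP levels went from 29, 32 and 33 to 10, 19 and 19 past 2-fold, and to 27 to 29, 31 to 33 and 31 to 33 with a library left out.

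Same-numbered libraries did not deviate together (correlation -0.0397 to 0.0302), so no shared effect of the number was seen. With 3 libraries per group, these correlations cannot tell whether same-numbered libraries were made together. With the replicate number as a block, WM164 cells had 6 higher and 3 lower in the ATF4 arm and 10 and 0 in the ER arm, SKMEL28 cells 1 and 6, and 3 and 1, and A375 cells 0. Response differences under the block were 7, 4 and 2, and GFP levels 29, 32 and 32.

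Signs were compared for members that passed in a line and, in every line, for ATF4, DDIT3, ATF6, XBP1, ERN1, EIF2AK3 and HSPA5. Other members that did not pass were not checked for their sign. Among those checked, signs turned for members that did not pass, and for ATF4 in WM164 cells, which is 0.01 on both TPM scales, where the median of all genes shifts by 0.14 (0.16 with 0.1 added). On log2(TPM + 1) and log2(TPM + 0.1) the values were 0.13 and 0.16 for ATF6 and 0.14 and 0.16 for EIF2AK3 in WM164 cells. In SKMEL28 cells they were -0.11 and -0.11 for HSPA5, -0.04 and -0.05 for ATF6 and -0.03 and -0.03 for EIF2AK3. In A375 cells they were -0.10 and -0.10 for ATF4 and -0.06 and -0.07 for EIF2AK3. With a library left out, ranges that crossed 0 were -0.10 to 0.04 for ATF6 in WM164 cells (above 0 without GFP 2), -0.08 to 0.03 for ATF4 in SKMEL28 cells (above 0 without GFP 3 or MAFG 1), -0.02 to 0.03 for ATF4 in A375 cells (below 0 without GFP 1 or MAFG 1) and -0.01 to 0.25 for EIF2AK3 in A375 cells (below 0 without MAFG 3). The cause was not tested in any of these. Genes with few reads, such as CHAC1 and STC2, are limited by depth.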
